A study of Mus musculus with 6 samples.

Results

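Neural plate and Pax genes were examined in embryoid bodies (EBs), the aggregates in which mouse embryonic stem cells begin to differentiate. The group holds 10 of the 52636 genes in the table of counts and was chosen by gene symbol. It comprises the Pax genes Pax2, Pax8, Pax3 and Pax6, the homeobox genes Hesx1, Six3 and Irx3, and the structural genes Nes, Ncam1 and Tubb3. This group and the lists of other genes were chosen with earlier results of these data known. Their shares are therefore set beside those of all genes tested as a description only. RNA was sequenced from 3 WT samples and 3 Tnfaip2-/- samples of EBs on day 3 of differentiation, and reads were counted per gene. The WT cells are the parental E14 line, and the Tnfaip2-/- cells come from 1 clone of this line with a premature stop codon in exon 2 of Tnfaip2, made with CRISPR-Cas9. With 1 clone, the genotype and other properties of that clone cannot be told apart. The study's methods call the samples biological replicates, so that p-values measure the spread between these samples only. That spread was small, with a common coefficient of variation beyond counting error of 0.0215 over the genes tested. How far it holds the variation between independent cultures was not tested. The sample descriptions and the methods differ in the volume and the cell number of the hanging drops used for both groups. Totals lay between 22489903 and 23804489 counts in the WT samples and between 21765931 and 22480962 counts in the Tnfaip2-/- samples.

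The neural plate is the sheet of ectoderm from which the brain and the spinal cord arise, and paired-domain (Pax) and homeobox transcription factors divide it into regions along its axes. Hesx1 and Six3 act at its anterior end, Pax6 in the forebrain and eye, Pax2 and Pax8 at the boundary of midbrain and hindbrain and in the kidney primordium, and Pax3 in its dorsal edge. Nestin, NCAM and the neuronal beta-tubulin encoded by Tubb3 are structural proteins of neural progenitors and neurons, although early cells of other lineages can transcribe their genes as well.

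The targeted gene, Tnfaip2, reached 7, 4 and 7 counts in the WT samples compared with 0, 2 and 2 in the Tnfaip2-/- samples. Each Tnfaip2-/- sample lay below each WT sample, at a depth close to the limit of counting in both groups. Scaled to the totals, the summed WT counts were 4.3 times the summed Tnfaip2-/- counts, with an exact 95% interval of 1.42 to 17.5 that covers counting error only.

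Among the 10 genes, 9 passed edgeR's filter on low counts, and all 9 had an adjusted p below 0.05 in its quasi-likelihood test, 6 lower and 3 higher in Tnfaip2-/- EBs. Across all genes 67.7% of the 17849 genes tested passed the same threshold, 33.7% lower and 34% higher, so that passing it does not by itself set these genes apart. With a second rule that also asks for a change of at least 2-fold, 4 of the 9 genes passed, against 12% of all genes tested. Pax8, Pax2 and Pax3 passed it as lower (4.51% of all genes tested), and Hesx1 passed it as higher (7.46%). The samples of the 2 genotypes did not overlap in any of the 9 genes, which held for 69.4% of all genes tested. The median log2 fold change of the 9 genes was -0.43, compared with 0.00 over all genes tested, whose quartiles were -0.30 and 0.31. Since EBs were sequenced in bulk, fewer cells that express a gene and less RNA per cell cannot be told apart for any of these differences.

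Pax8 had the largest fall and Hesx1 the largest rise among the 9 genes, and the bases before the transcript starts of both are shown to place them beside the counts. RefSeq promoter windows on GRCm38.p6 were found for 8 of the 10 genes, and Pax3 and Ncam1 had no entry. The Pax8 window is chr2:24475600-24475849 on the reverse strand, ends at an annotated start of Pax8, holds 0 annotated exons and lies within an intron of the antisense gene Gm13415. For Hesx1 the window is chr14:27000112-27000361 on the forward strand. It ends at the start of 1 Hesx1 transcript and lies inside an intron of the other. Both are written 5′ to 3′ with each CG dinucleotide in capitals.
Pax8: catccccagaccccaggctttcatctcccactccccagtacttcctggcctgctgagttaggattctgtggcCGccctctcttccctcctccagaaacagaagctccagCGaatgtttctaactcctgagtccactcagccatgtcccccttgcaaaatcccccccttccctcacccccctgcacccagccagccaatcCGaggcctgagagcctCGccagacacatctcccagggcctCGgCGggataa
Hesx1: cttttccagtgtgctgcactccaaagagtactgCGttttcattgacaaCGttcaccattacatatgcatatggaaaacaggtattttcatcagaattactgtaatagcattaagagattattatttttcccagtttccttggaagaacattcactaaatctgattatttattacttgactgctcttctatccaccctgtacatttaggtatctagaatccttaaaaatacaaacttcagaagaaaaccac
The Hesx1 window held 2 CG dinucleotides at a GC content of 34%, and 29% of all 32851 windows of this length held as few or fewer. In the Pax8 window there were 6, the median of all windows, at a GC content of 60.4%. Over the 11 windows of the 8 genes the number ranged from 2 in Hesx1 to 25 in 1 of the 3 windows of Pax2, and Tubb3 had 21. Searched on both strands, the letters CCAAT occurred 1 time before Pax8, 1 time in 1 window of Pax6, 1 time before Tubb3, 3 times before Six3 and not before Hesx1, and 33.8% of all windows hold them. The letters GGGCGG occurred 1 time before Pax8, 1 time in each of 2 windows of Pax2, 2 times before Nes and 2 times before Tubb3, and 32.7% of all windows hold them. These matches describe the letters and do not show a bound factor.

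All 4 Pax members were lower in Tnfaip2-/- EBs. Pax8 (ENSMUSG00000026976, chromosome 2, 24420560 to 24475599 on GRCm38) had 66, 80 and 77 counts in the WT samples compared with 11, 11 and 15 in the Tnfaip2-/- samples. Every Tnfaip2-/- sample was low and every WT sample high, with a wide gap between the groups. In counts per 1000000 counts (CPM) its level went from 3.25 ± 0.331 to 0.554 ± 0.106 (SD, n = 3), and the log2 fold change was -2.54 with a standard error (SE) of 0.215 (adjusted p = 1.89e-14, edgeR's quasi-likelihood test). Pax2 (ENSMUSG00000004231, chromosome 19, 44756045 to 44837871), its close paralogue, had 15, 31 and 20 counts in the WT samples compared with 5, 8 and 7 in the Tnfaip2-/- samples. The WT samples of Pax2 were the most spread of the 4 genes, and the second WT sample stood highest, yet the lowest WT sample was above the highest Tnfaip2-/- sample. Its log2 fold change was -1.67 (SE 0.352, adjusted p = 5.33e-05, same test).

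Pax3 (ENSMUSG00000004872, chromosome 1, 78101267 to 78197134), which marks the dorsal neural tube and the somites, had 50 counts in each of the 3 WT samples compared with 19, 17 and 18 in the Tnfaip2-/- samples. These were the tightest replicates of the 4 Pax members. The log2 fold change was -1.43 (SE 0.211, adjusted p = 7.49e-08, edgeR's quasi-likelihood test). Pax6 (ENSMUSG00000027168, chromosome 2, 105668900 to 105697364), the Pax member with the most counts, had 383, 397 and 393 counts in the WT samples compared with 241, 217 and 191 in the Tnfaip2-/- samples. Its fall was the smallest of the 4, with a log2 fold change of -0.82 (SE 0.0754, adjusted p = 3.08e-13, same test), and the groups were still far apart.

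The homeobox members did not move together. Hesx1 (ENSMUSG00000040726, chromosome 14, 26994416 to 27002329), a repressor needed for forebrain and pituitary development that is also transcribed in pluripotent cells, had 32, 20 and 29 counts in the WT samples compared with 182, 165 and 149 in the Tnfaip2-/- samples. All Tnfaip2-/- samples were several times above all WT samples. Its level rose from 1.18 ± 0.264 to 7.42 ± 0.653 CPM (SD, n = 3), which is a 6.26-fold difference and a log2 fold change of 2.65 (SE 0.151, adjusted p = 2.05e-20, edgeR's quasi-likelihood test). Irx3 (ENSMUSG00000031734, chromosome 8, 91798525 to 91802067), an Iroquois factor of the more posterior neural plate, had 233, 243 and 219 counts in the WT samples compared with 262, 296 and 301 in the Tnfaip2-/- samples. It was slightly but separably higher, with a log2 fold change of 0.34 (SE 0.081, adjusted p = 0.000247, same test). Six3 (ENSMUSG00000038805, chromosome 17, 85613608 to 85629302), which specifies forebrain and eye, had 8, 7 and 13 counts in the WT samples compared with 4, 3 and 6 in the Tnfaip2-/- samples, too few for the filter. Although the groups did not overlap, its difference missed the threshold when the filter was dropped (log2 fold change -1.07, SE 0.461, adjusted p = 0.0585, same test). Over the alternatives the adjusted p of Six3 ranged from 0.046 to 0.254, and it was below 0.05 without WT replicate 2 (log2 fold change -1.22) and without Tnfaip2-/- replicate 3 (-1.37).

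Changes in the structural members were small and well measured. Nes (ENSMUSG00000004891, chromosome 3, 87971078 to 87980451), which encodes the intermediate filament protein nestin, had 425, 458 and 414 counts in the WT samples compared with 350, 303 and 363 in the Tnfaip2-/- samples. The lowest WT sample was only a little above the highest Tnfaip2-/- sample. Its log2 fold change was -0.32 (SE 0.069, adjusted p = 8.93e-05, edgeR's quasi-likelihood test). Ncam1 (ENSMUSG00000039542, chromosome 9, 49502136 to 49798925), which encodes the neural cell adhesion molecule, had 285, 264 and 235 counts in the WT samples compared with 199, 188 and 181 in the Tnfaip2-/- samples. Here too all Tnfaip2-/- samples were lower, with a log2 fold change of -0.43 (SE 0.0867, adjusted p = 2.91e-05, same test). Tubb3 (ENSMUSG00000062380, chromosome 8, 123411424 to 123422015) went the other way, with 1531, 1557 and 1511 counts in the WT samples compared with 1921, 1898 and 1962 in the Tnfaip2-/- samples. Every Tnfaip2-/- sample was above every WT sample, and its log2 fold change was 0.37 (SE 0.0364, adjusted p = 2.65e-12, same test).

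**Figure D1:**
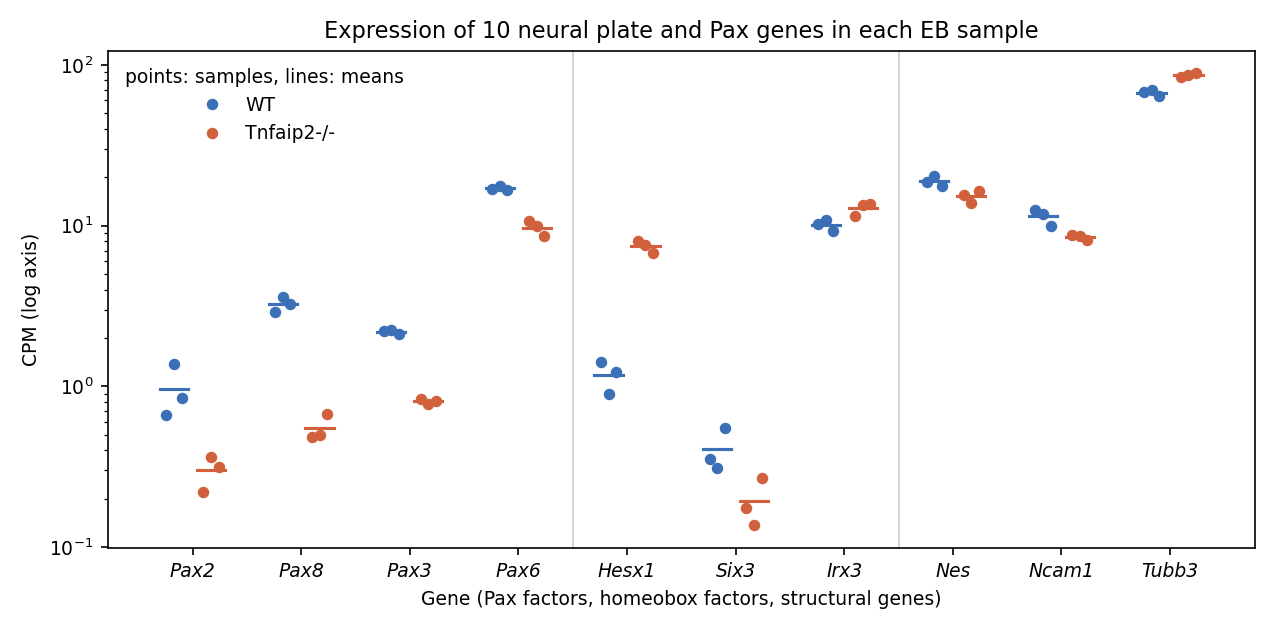
Expression of the 10 genes in each of the 6 samples, in CPM on a log axis, with points for samples (blue WT, orange Tnfaip2-/-) and lines for means of 3. The Pax members are lower in Tnfaip2-/- EBs, Hesx1 rises from 1.18 to 7.42 CPM, and the structural genes shift little.

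The levels per length, as CPM per 1000 exon bases (RPKM), ordered the 10 genes differently in the 2 genotypes. Tubb3 was highest in both, at 35.9 ± 1.41 RPKM in WT and 46.3 ± 1.05 RPKM in Tnfaip2-/- EBs (SD, n = 3). In WT EBs Irx3 (3.68 RPKM), Nes (2.95), Pax6 (1.46), Ncam1 (1.32), Hesx1 (0.945), Pax8 (0.537), Pax3 (0.354), Pax2 (0.179) and Six3 (0.0746) followed, and of neighbouring genes in this order the samples of Pax6 and Ncam1 overlapped. In Tnfaip2-/- EBs the order was Hesx1 (5.95 RPKM), Irx3 (4.66), Nes (2.37), Ncam1 (0.981), Pax6 (0.83), Pax3 (0.131), Pax8 (0.0914), Pax2 (0.0555) and Six3 (0.0357), where Pax2 and Six3 overlapped. Hesx1 thus moved from the middle of the order to the place after Tubb3, and Pax8 went from above Pax3 to below it.

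**Figure D2:**
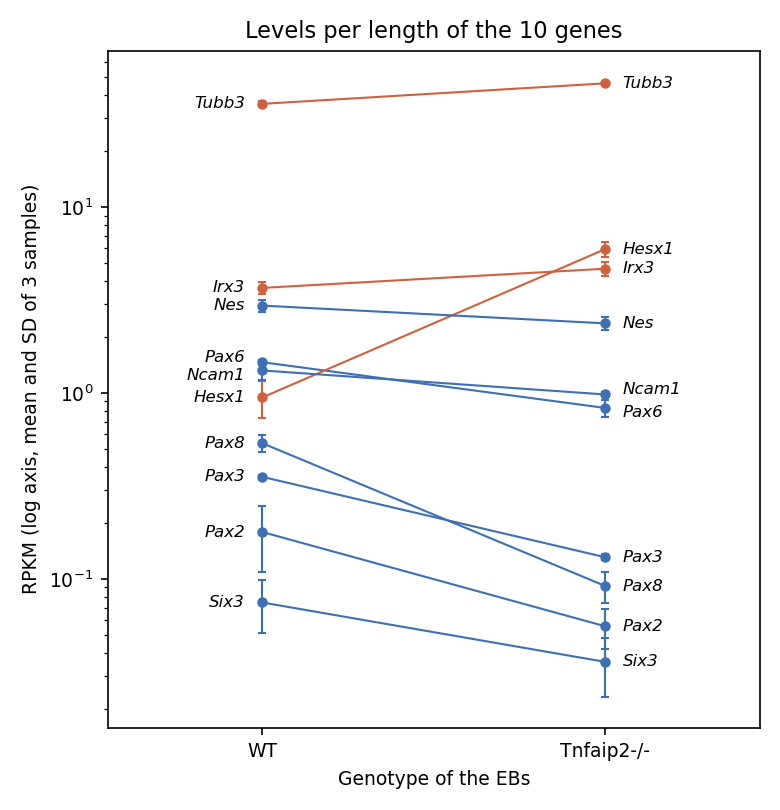
Level per length of each of the 10 genes in WT and Tnfaip2-/- EBs, in RPKM on a log axis, as the mean of 3 samples with the SD as bars, in orange where the mean is higher and in blue where it is lower in Tnfaip2-/- EBs. Hesx1 crosses Irx3, Nes, Pax6 and Ncam1 and reaches 5.95 RPKM, and Six3 is drawn although it was below the filter on low counts.

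The other Pax genes gave the same direction where they could be tested. Pax5, the third gene of the family that holds Pax2 and Pax8, had 13, 19 and 19 counts in the WT samples compared with 2, 3 and 4 in the Tnfaip2-/- samples. Its log2 fold change was -2.42 (SE 0.428, adjusted p = 3e-06, edgeR's quasi-likelihood test). Pax7, the paralogue of Pax3, had 23, 25 and 27 counts in the WT samples compared with 9, 7 and 15 in the Tnfaip2-/- samples, a log2 fold change of -1.23. Pax9 had 0 to 5 counts per sample, Pax1 had at most 1, and Pax4 had 0 in all 6. Of the 9 Pax genes in all, 6 were tested and 6 fell, beside 33.7% lower among all genes tested, with a median log2 fold change of -1.55. At 2-fold or more 5 were lower, beside 4.51% of all genes tested.

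Among the 10 relatives of Six3 and Irx3, 8 were tested, of which 5 fell and 2 rose, beside 33.7% lower and 34% higher of all genes tested, with a median log2 fold change of -0.78. Six2, which maintains nephron progenitors in the kidney, fell furthest, from 46, 61 and 55 counts in the WT samples to 2, 3 and 5 counts in the Tnfaip2-/- samples (log2 fold change -3.93). Family members therefore moved in opposite directions. Six5 had the highest mean level per length in WT EBs (3.74 RPKM, against 3.58 for Six4) and fell (log2 fold change -0.67), while Six4, the highest in Tnfaip2-/- EBs (4.46 RPKM), rose by a log2 fold change of 0.32. Irx5, which lies next to Irx3, did not pass the test (log2 fold change -0.01, SE 0.142), and its sign turned with scaling by total counts, without WT replicate 2 (0.12) and without Tnfaip2-/- replicate 2 (0.11). Of the 6 Eya and Dach genes, which encode cofactors of Six2, Six4 and their relatives, 4 were tested, 2 higher and 2 lower (67.7% of all genes tested passed in either direction), with a median of -0.49. Eya2 rose most, from 7, 15 and 8 counts to 29, 34 and 41 counts (log2 fold change 1.82). Dach1 fell most, from 53, 82 and 65 counts to 12, 12 and 9 counts (log2 fold change -2.55). Eya3, the highest of them per length, had a log2 fold change of 0.12 that no longer passed without WT replicate 3 (0.09, adjusted p = 0.0553, with a range of 0.000299 to 0.0553 over the alternatives).

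Of the 7 other beta-tubulin genes, 6 were tested, and 4 fell while 2 rose, beside 33.7% lower and 34% higher of all genes tested (median log2 fold change -0.43). Tubb5, the highest of them per length at 870.6 RPKM in WT EBs, fell with a log2 fold change of -0.42, and Tubb4a fell most (-1.68). Tubb6 rose by a log2 fold change of 0.39, close to the 0.37 of Tubb3. Stretches of 51 bases, as long as the reads, recur in other genes for 49.3% of the exon windows of Tubb2a, 36.6% of those of Tubb2b and 40.8% of those of Tubb4b, which leaves the counts of these 3 genes uncertain, whereas none recur in Tubb3. Of the 8 genes related to NCAM and nestin in function or structure, 6 were tested, 3 lower and 2 higher, against the same shares (median log2 fold change -0.19). St8sia2, whose enzyme adds polysialic acid to NCAM, fell most (log2 fold change -2.01), with 34, 31 and 31 counts in the WT samples compared with 10, 5 and 8 in the Tnfaip2-/- samples. Synm, which encodes the filament protein synemin, rose most (log2 fold change 2.43), and Vim, which encodes vimentin and was the highest per length, fell by 1.28 on the log2 scale.

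**Figure D3:**
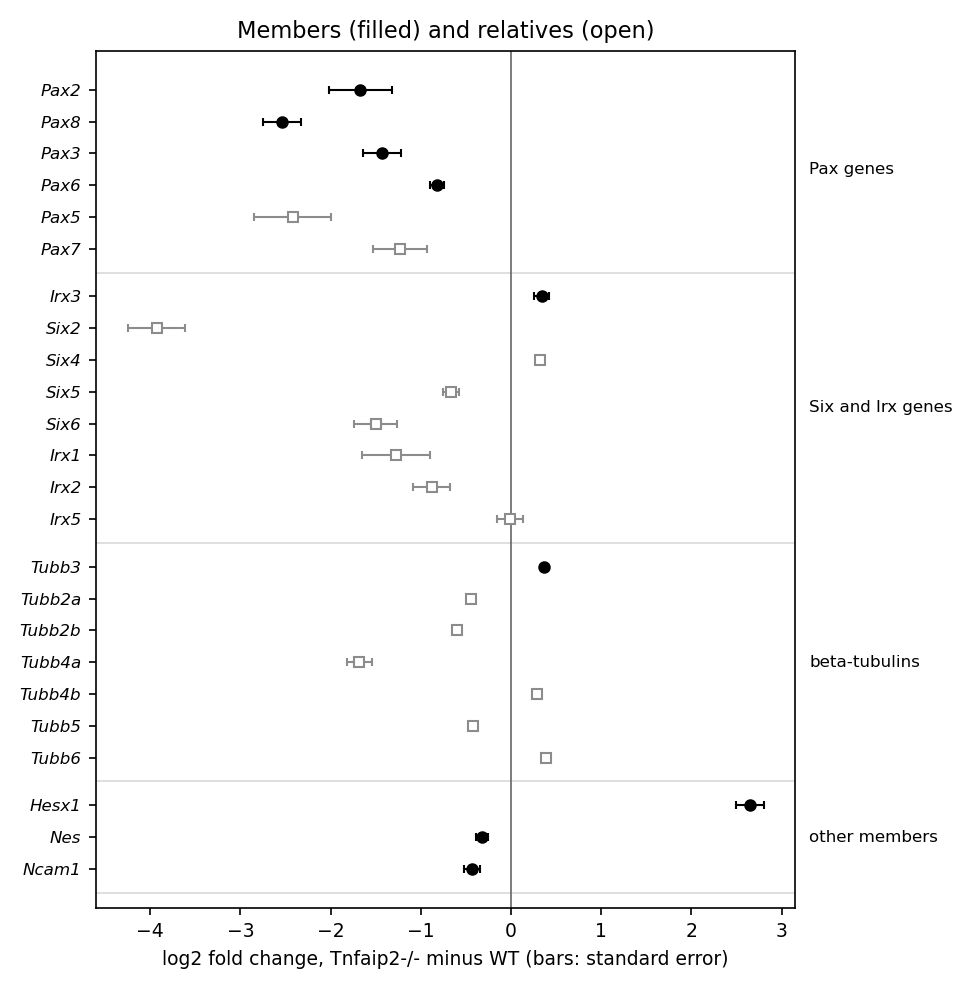
The log2 fold change between Tnfaip2-/- and WT EBs of the 9 tested members (filled) and of relatives (open), with the standard error as bars. All 6 tested Pax genes lie below 0, whereas the relatives of Six3 and Irx3 and the beta-tubulin genes lie on both sides.

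Members of the group lie on 8 chromosomes, and the nearest protein-coding gene on each side was read as well. Of the 19 such neighbours tested, 13 had an adjusted p below 0.05, beside 67.7% of all genes tested, and 5 of them changed at least 2-fold, beside 12% of all genes tested. Psd4, 5606 bases from Pax8, rose (log2 fold change 1.89) where Pax8 fell. Crabp2, 17702 bases from Nes and encoding a retinoic acid binding protein, fell further than Nes (log2 fold change -2.10). Beside Pax3, Epha4 fell (-1.21) and Sgpp2 on the other side of Pax3 rose (1.34). The level of Sgpp2 was low, at 0.261 CPM in WT and 0.673 CPM in Tnfaip2-/- EBs. Six2 is the neighbour of Six3, and its fall (-3.93) was much larger than the difference in Six3, which was not called. The library kit does not keep the strand, so that reads from overlapping antisense genes cannot be told apart. Such genes cover 6.06% of the exon bases of Pax8 (Gm13415), 4.81% of Ncam1 (Gm11149), 4.49% of Irx3 (Irx3os), and 3.08% (Gm28528, at 0 counts in all samples) and 1.95% (Six3os1) of Six3. Gm13415 had 2, 5 and 0 counts in the WT samples compared with 0, 0 and 1 in the Tnfaip2-/- samples, far below Pax8. Six3os1 had 10, 15 and 12 counts in the WT samples compared with 8, 6 and 11 in the Tnfaip2-/- samples. It had more counts than Six3 in each Tnfaip2-/- sample and in WT replicates 1 and 2, but not in WT replicate 3. With 1.95% of the exon bases shared, what it adds to the counts of Six3 was not tested.

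The genes with the pattern closest to Pax8, by the root mean square difference in log2 CPM over the 6 samples, were Zfp36l3 (0.207), Olfr985 (0.208) and Hrh3 (0.231). Those closest to Hesx1 were Zscan4c (0.173), Vsir (0.185) and AU015836 (0.197). Zscan4c, known from a rare state of embryonic stem cells that resembles the early embryo, went from 1.18 ± 0.0602 to 7.5 ± 0.226 CPM (SD, n = 3), nearly the levels of Hesx1.

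Further genes of the neural plate and of neural tissue were counted from lists of their own. Of 22 patterning factors, 8 were tested, and 6 fell and 0 rose, beside 33.7% lower and 34% higher of all genes tested. Their median log2 fold change was -0.81 against 0.00 over all genes (at an unadjusted p below 0.05, 0 rose as well, and DESeq2 called 0 higher). Vax2, a factor of the ventral eye, fell most, from 167, 157 and 183 counts in the WT samples to 22, 19 and 20 counts in the Tnfaip2-/- samples (log2 fold change -3.01). Otx2, which is needed for the anterior neural plate and was the highest of the list per length, had 5119, 4963 and 5288 counts in the WT samples compared with 5062, 4868 and 4959 in the Tnfaip2-/- samples. The groups overlapped, and its log2 fold change of -0.01 (SE 0.0261) missed the threshold and turned to 0.02 with scaling by total counts. Most patterning genes were near the limit of detection, and 14 of the 22 did not pass the filter.

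Of 13 neural progenitor genes, 11 were tested, with 9 lower and 2 higher, beside 33.7% lower and 34% higher of all genes tested, and a median log2 fold change of -1.05. Fabp7, a radial glia gene, fell most, from 30, 28 and 38 counts in the WT samples to 2, 1 and 4 counts in the Tnfaip2-/- samples (log2 fold change -3.67). Sox21 rose most, from 84, 104 and 88 counts to 204, 190 and 170 counts (log2 fold change 1.07), although 17.7% of its 51-base windows recur in other genes. Sox2, which is shared with the pluripotency list and had the highest level per length of both neural lists, rose from 136 to 160 RPKM, a log2 fold change of 0.23.

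Among 17 genes of neuronal differentiation, 11 were tested, of which 7 fell and 3 rose, beside 33.7% lower and 34% higher of all genes tested, with a median log2 fold change of -0.72. Dcx, which encodes a microtubule protein of migrating neurons, had 14, 21 and 19 counts in the WT samples compared with 1, 0 and 0 in the Tnfaip2-/- samples. Scaled to the totals, its summed WT counts were 51.6 times the summed Tnfaip2-/- counts, with an exact 95% counting interval of 8.88 to 2080. The ratio rests on the 1 count of Tnfaip2-/- replicate 1, and the fitted log2 fold change, which is no bound at such counts, went from -5.27 to -7.16 without that sample. Mapt, which encodes the axonal protein tau, rose most (log2 fold change 1.59), from 16, 14 and 13 counts to 42, 37 and 48 counts. The highest of the list per length was Stmn2, at 3511, 3289 and 3700 counts in the WT samples compared with 987, 1008 and 1066 in the Tnfaip2-/- samples (log2 fold change -1.74). Summed over the list, the level was 191.7, 184.6 and 194.5 CPM in the WT samples and 79.3, 82.7 and 86.8 CPM in the Tnfaip2-/- samples, a net fall that came from Stmn2. Without Stmn2 the sum was 36.8, 37.7 and 37 CPM in the WT samples and 35.8, 36.7 and 38.8 CPM in the Tnfaip2-/- samples, and the groups overlapped. Within this sum, falls such as that of Elavl3 (10.6 to 6.5 CPM) and rises such as that of Gap43 (4.56 to 11.9 CPM) offset each other. Neurog2 and Neurod4 were at 0 counts in all Tnfaip2-/- samples and at no more than 4 in a WT sample. Rbfox3, a marker of mature neurons, had 5 to 12 counts per sample and was not tested.

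Genes of the neural plate border and neural crest, among which Pax3 and Pax7 act, held the largest rise of the 14 lists. Of 12 genes, 10 were tested, with 6 lower and 2 higher, beside 33.7% lower and 34% higher of all genes tested, and a median log2 fold change of -1.49. Zic1 had 111, 94 and 107 counts in the WT samples compared with 2, 0 and 2 in the Tnfaip2-/- samples, a ratio of 74.6 by summed counts (exact 95% interval 28.8 to 275). Dlx3 rose most, from 11, 13 and 8 counts to 108, 137 and 136 counts (log2 fold change 3.60). The gene with the highest level per length was another one in each genotype. In WT EBs it was Foxd3, a factor of neural crest and of pluripotent cells, which fell from 899, 896 and 884 counts to 152, 135 and 130 counts (log2 fold change -2.65). In Tnfaip2-/- EBs it was Tfap2c, an AP-2 factor of early ectoderm, germ cells and trophoblast, which rose from 512, 459 and 515 counts to 3921, 3708 and 3801 counts (log2 fold change 2.98). Dlx5 had 0 counts in all Tnfaip2-/- samples and 3, 4 and 3 counts in the WT samples. The summed level of the list rose, from 80, 79 and 77.9 CPM in the WT samples to 189.6, 186.4 and 189.6 CPM in the Tnfaip2-/- samples, a net rise that came from Tfap2c. Without Tfap2c the sum fell, from 57.4, 58.5 and 56 CPM to 17, 17.1 and 18.2 CPM.

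**Figure D4:**
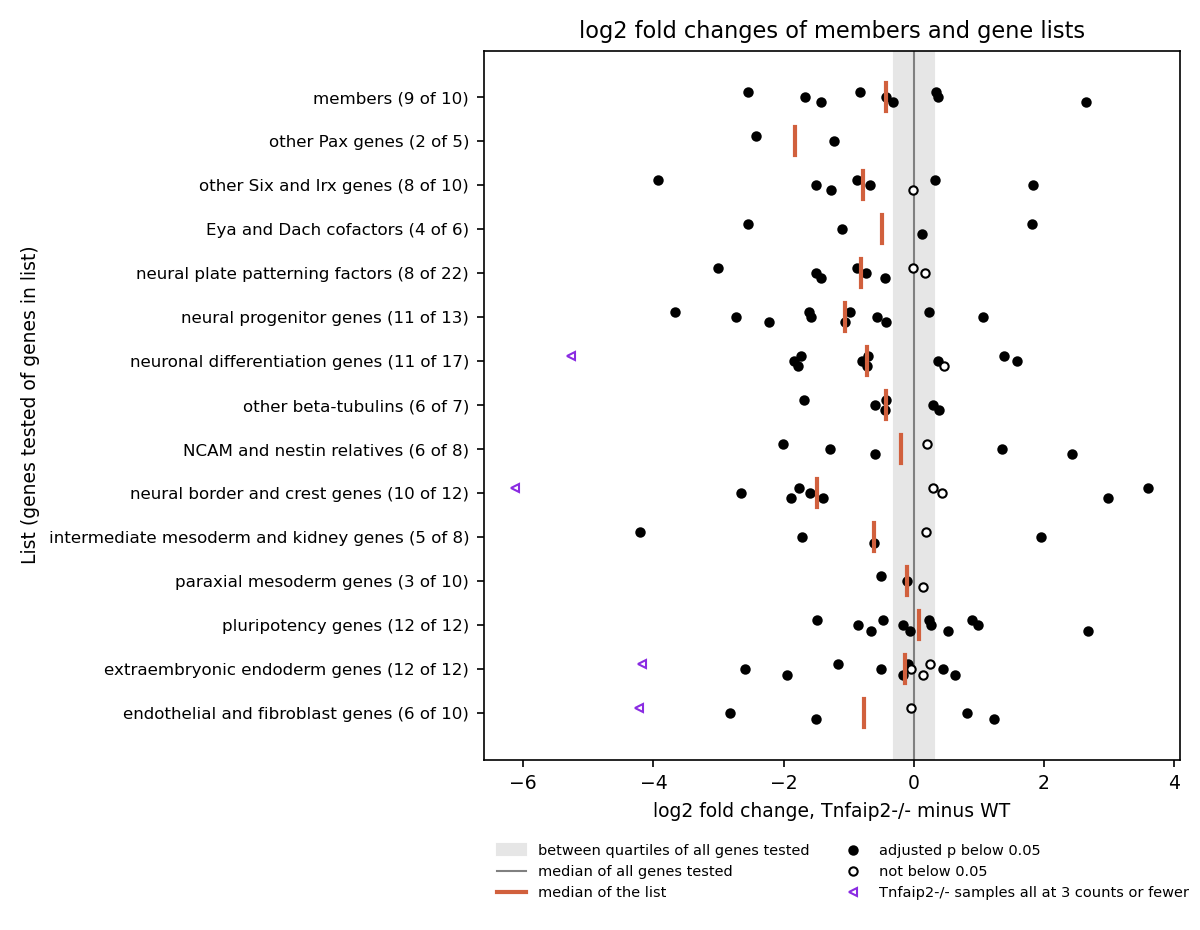
The log2 fold changes between Tnfaip2-/- and WT EBs of the tested members and of 14 lists of genes, with the median of each list in orange and the span between the quartiles of all genes tested, from -0.30 to 0.31, in grey. Open circles did not pass the test, and open triangles are genes whose Tnfaip2-/- samples all had 3 counts or fewer, where the fitted value is not a bound.

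Because Pax2, Pax8 and Pax3 also mark kidney and somite precursors, lists for other cell types were read beside them, and their calls are to be held against the same 33.7% lower and 34% higher of all genes tested. Of 8 intermediate mesoderm and kidney genes, 5 were tested, with 3 lower, 1 higher and a median log2 fold change of -0.61. Lhx1 fell most, from 50, 63 and 65 counts in the WT samples to 4, 4 and 1 counts in the Tnfaip2-/- samples (log2 fold change -4.21), and Ret, a receptor of the ureteric bud, rose most (log2 fold change 1.95). The summed level was 307.4, 320.4 and 308.1 CPM in the WT samples and 203.4, 192 and 207.9 CPM in the Tnfaip2-/- samples, most of it from Sall1, which embryonic stem cells also express. Osr1, an early marker of intermediate mesoderm, had 2, 2 and 4 counts in the WT samples and 0 in all Tnfaip2-/- samples, and Gdnf was at 0 in all WT samples and at 2, 0 and 0 in the Tnfaip2-/- samples. Of 10 paraxial mesoderm genes, 3 were tested, and Tbx6 (log2 fold change -0.51) and Tcf15 (-0.10, also the median) fell. Neither call is firm. With all 6 samples both were lost in DESeq2, and that of Tcf15 also with scaling by total counts (-0.07). Both were lost without WT replicate 1 (Tbx6 -0.37, Tcf15 -0.09) and without Tnfaip2-/- replicate 1 (Tbx6 -0.48, Tcf15 -0.08), and that of Tbx6 also without WT replicate 3 (-0.46) or Tnfaip2-/- replicate 2 (-0.45). Over the alternatives the adjusted p ranged from 0.00556 to 0.198 for Tbx6 and from 0.00179 to 0.0933 for Tcf15. The highest value among those tested was that of Mesp2 (0.14), which did not pass. The summed level of the list was 85.6, 82.5 and 81.1 CPM in the WT samples and 73.4, 75.9 and 80.3 CPM in the Tnfaip2-/- samples, most of it from Tcf15. Msgn1, Meox2 and Uncx were at 0 in all Tnfaip2-/- samples, and in the WT samples Msgn1 had 9, 8 and 3 counts and Uncx 5, 1 and 2. Meox2 had 1, 1 and 0 there, so that its groups overlapped.

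Pluripotency genes, the defining markers of the stem cells from which the EBs were made, were abundant in all 6 samples when summed. Single genes differed widely, from 338 RPKM in Pou5f1 to 2.52 RPKM in Tfcp2l1 in WT EBs. All 12 genes of the list were tested, 6 higher and 6 lower, with a median log2 fold change of 0.08. Among those lower, Utf1 was near the threshold (log2 fold change -0.06, adjusted p = 0.0465, edgeR's quasi-likelihood test), and its groups overlapped. That call was lost in DESeq2, where 5 were lower, and in several other alternatives. The summed level of the list was 2878, 2863 and 2856 CPM in the WT samples and 2808, 2827 and 2844 CPM in the Tnfaip2-/- samples. Without Pou5f1 the direction turned, with 2109, 2113 and 2096 CPM in the WT samples and 2387, 2403 and 2432 CPM in the Tnfaip2-/- samples. Pou5f1 was the highest per length in WT EBs (338 RPKM) but not in Tnfaip2-/- EBs (186 RPKM), where Utf1 was (252 RPKM). It fell by 0.86 on the log2 scale, while Dppa3 rose most (2.67) and Klf4 fell most (-1.49). Hesx1 and Dppa3 thus rose by nearly the same log2 fold change, although 15.8% of the 51-base windows of Dppa3 and 9.93% of those of Pou5f1 recur in other genes. All 12 extraembryonic endoderm genes were tested as well, with 7 lower, 2 higher and a median log2 fold change of -0.13. Among those lower, Cubn was near the threshold (log2 fold change -0.09, adjusted p = 0.0458, edgeR's quasi-likelihood test), and its groups overlapped. Afp fell, at 21, 16 and 25 counts in the WT samples compared with 1, 0 and 2 in the Tnfaip2-/- samples, a ratio of 19.8 by summed counts (exact 95% interval 6.45 to 98.4). The ratio rests on the 1 count of Tnfaip2-/- replicate 1 and the 2 counts of Tnfaip2-/- replicate 3. Without WT replicate 3 or without Tnfaip2-/- replicate 3, 1 gene was higher in place of 2. Sox7 rose most (0.64), and Dab2, the highest per length, fell slightly (-0.17). The summed level was 142, 141.5 and 137.7 CPM in the WT samples and 124.1, 121.8 and 123.2 CPM in the Tnfaip2-/- samples, led by Cubn.

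Of 10 endothelial and fibroblast genes, 6 were tested, with 3 lower, 2 higher and a median log2 fold change of -0.77. Col3a1 fell from 12, 21 and 12 counts in the WT samples to 1, 1 and 0 counts in the Tnfaip2-/- samples, a ratio of 21.5 by summed counts (exact 95% interval 5.62 to 183). Tie1 rose most (log2 fold change 1.23), and Tek, the most abundant and the highest per length, rose by 0.81. Kdr, also an endothelial gene, went the other way. It fell from 34, 38 and 32 counts in the WT samples to 5, 6 and 3 counts in the Tnfaip2-/- samples (log2 fold change -2.82). The summed level was low throughout, at 7.72, 9.51 and 7.62 CPM in the WT samples and 5.94, 6.16 and 7.31 CPM in the Tnfaip2-/- samples. Without Tek, which rose, it fell from 6, 7.37 and 6.17 CPM to 2.95, 3.38 and 3.79 CPM. Lum and Postn were at 0 in all Tnfaip2-/- samples. In the WT samples Postn had 2, 2 and 4 counts and Lum 0, 1 and 1, so that the groups of Lum overlapped. With 3 counts per sample in place of the lower counts of Dcx, Zic1, Afp and Col3a1 in Tnfaip2-/- EBs, the medians of their 4 lists were the same. These 4 genes still lay below the medians, so that this replacement could not move the medians. The part of these cell types in the differences of the Pax and neural plate genes was not tested.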

How the data were processed

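Reads were trimmed by quality and mapped by the authors to GRCm38 (TopHat2 2.1.0). Those mapped uniquely were counted per Ensembl gene (featureCounts 1.5.0) and deposited as raw counts. The strand setting is not given in the sources used here. All 6 columns were used and grouped by the labels. Symbols, positions and exon lengths come from GENCODE M21, which named 52489 of 52636 genes. The whole table was fitted in edgeR 4.0.16 (R 4.3.3) with TMM factors, the default filter (minimum count 10, minimum total 15), the robust quasi-likelihood test without the legacy form, and Benjamini-Hochberg adjustment over 17849 genes at 0.05. Standard errors are approximate, derived from the F statistic. The study used DESeq2 (1.42.0 here), an alternative. The procedure was tested on simulated data, and the outcome is not reported here. At this depth 3 counts equal 0.128 to 0.137 CPM. Members and lists were chosen with earlier results of these data known. Of each list the text names the tested genes with the largest rise, the largest fall and the highest level per length (over both groups or in 1), and those at 0 counts where few; 2 of these genes are not reported here. Neighbouring and overlapping genes, Rbfox3, Kdr, Pax1, Pax4 and Pax9, and scaling by total counts were added after values were seen.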

Additional observations from a re-analysis of the deposited data

How the results depend on the processing

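The numbers of members called higher, lower and at 2-fold or more gave values within 1.5 times of the reported ones under all 14 alternatives (42 values). Of 137 alternative log2 fold changes of the members, 135 had the reported direction and lay on the same side of the threshold, and 2 of Six3 passed where the reported value did not. The range of Six3 over samples left out was -1.37 to -0.78, and with the stricter filter it could not be tested. That filter also left Pax2 untested, so that 5 members were lower and 3 were called at 2-fold or more. Replicate numbers do not pair the samples, since the deviations of same-numbered samples correlated at -0.0218, -0.0252 and -0.0324 across genes. With the replicate number as a block, 3 members were higher and 6 lower, as without it. Scaling by total counts was chosen after seeing the data and shifted the median of all genes by 0.0278.

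Of 392 alternative counts of the lists, 18 moved by over 1.5 times. With the stricter filter, which tests fewer genes, 1 other Pax gene was lower, and 1 NCAM and nestin relative and 1 endothelial and fibroblast gene were higher. Without a filter, which tests more genes, 10 patterning factors, 5 paraxial mesoderm genes and 5 endothelial and fibroblast genes were lower. DESeq2 called 1 NCAM and nestin relative and 1 extraembryonic endoderm gene higher, and the 2 paraxial mesoderm genes it called lower were not Tbx6 and Tcf15. At an adjusted p below 0.01, 0 paraxial mesoderm genes were lower and 1 extraembryonic endoderm gene was higher, and with scaling by total counts 1 paraxial mesoderm gene was lower. Over samples left out, Eya and Dach genes called higher ranged from 1 to 2, paraxial mesoderm genes called lower from 0 to 2, and extraembryonic endoderm genes called higher from 1 to 2. Other than for the filters and the stricter threshold, the cause was not tested.

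Of 929 alternative log2 fold changes of other named genes, 893 matched the reported direction and call, 25 became weaker and 7 stronger. Those that became weaker were of Utf1, Tbx6, Tcf15, Tnfaip2 and Eya3. Signs turned in 4, all of genes that did not pass: Otx2 with total counts (0.02), and Irx5 with total counts (0.02) and over samples left out (-0.13 to 0.12). Depth limits the genes with fewer than about 10 counts per sample, Six3 and Tnfaip2 among them. The adjusted p of Tnfaip2 ranged from 0.0133 to 0.0933 over its alternatives, and it missed the threshold of 0.05 with DESeq2 and without WT replicate 1, WT replicate 3 or Tnfaip2-/- replicate 1.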
